A study of Mus musculus with 6 samples.

Results

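The ribosomal protein genes of the cytosolic and the mitochondrial ribosome were followed as mouse embryonic stem cells (ESCs) became epiblast-like cells (EpiLCs). Members were taken by symbol from the 24736 rows of the deposited table. Symbols beginning with Rpl, Rps or Mrp that name a ribosomal protein gave 167 members, of which 89 were cytosolic (54 large-subunit and 35 small-subunit genes by symbol) and 78 mitochondrial (49 and 29), after 6 rows with -ps in their symbol and 10 Rps6k kinase genes were dropped. The symbol rule also takes Rps19bp1, which encodes a binding protein of Rps19 and no subunit. Subunit classes also follow the symbol, although the products of Mrps18a and Mrps30 sit in the large mitochondrial subunit and that of Mrps36 has since been assigned to another complex.

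Polyadenylated RNA was sequenced from 3 ESC and 3 EpiLC biological replicates of the XY HM1 TetON line, which carries the parts of a doxycycline-inducible system and is the wild-type line of the study. ESCs (0 h) were grown on mitotically inactivated fibroblast feeders with 10% serum and LIF at 1000 U/ml. EpiLCs (48 h by the labels, although the culture methods give a longer time) were grown without serum in N2B27 with bFGF at 10 ng/ml and LGK974, which blocks the secretion of WNT ligands, at 5 µM. Feeders were separated from the ESCs by their adhesion before differentiation. Libraries held between 16967741 and 35096210 expected counts, so that 3 counts corresponded to between 0.0855 and 0.177 CPM (counts scaled to library size), a floor that covers counting error only. All 6 ESC marker genes were lower and all 5 EpiLC marker genes were higher in EpiLCs (edgeR's quasi-likelihood test, adjusted p up to 0.05), so the markers followed the labels. Summed TPM (a level corrected for transcript length and library size) of 14 fibroblast markers was 359.7, 1650 and 130.4 in ESC replicates 1, 2 and 3 and between 94.03 and 102.5 in EpiLCs. Of the 12 tested, 6 were lower and 0 higher in EpiLCs (edgeR, with 7 and 0 at an unadjusted p under 0.05, and 7 and 0 by DESeq2). Fap and Lum were near 0 in both states, at up to 0.05 and 0.18 TPM in ESCs. Col1a1 was at 90.46, 489.1 and 28.33 TPM in ESCs and between 3.08 and 13.9 TPM in EpiLCs. Thy1 was at 16.92, 35.06 and 10.01 TPM in ESCs and between 20.12 and 23.79 TPM in EpiLCs. Acta2 was at 68.54, 414.8 and 23.54 TPM in ESCs and 47.83, 16.76 and 48.9 TPM in EpiLCs. Thy1 and Acta2 thus overlapped between the states, and in each EpiLC library they were the highest of the 14 markers. All 4 primitive endoderm markers (Gata4, Gata6, Sox17 and Foxa2) were lower in EpiLCs, and their summed TPM was 46.48, 32.97 and 28.01 in the ESC libraries and between 3.31 and 4.59 in EpiLCs. The part of either cell type in the comparisons of the members was not tested.

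The cytosolic ribosome translates the messages of the nucleus. Its subunits are encoded by strongly expressed housekeeping genes whose messages often begin with a C followed by a run of pyrimidines, the terminal oligopyrimidine (TOP) motif through which mTOR signalling controls their translation. The mitochondrial ribosome is built from a separate set of nuclear genes and makes the few proteins encoded by mitochondrial DNA. Some cytosolic proteins also exist as a second, less expressed gene, a paralog, and several of these are best known from the testis.

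Start sites are shown for members on which the later results turn: Rps18 and Rps27 as messages with a pyrimidine tract at the annotated start, Rps27rt for its resemblance to Rps27, Rpl39 with its paralog Rpl39l, Rpl10l, and the mitochondrial genes Mrpl36 and Mrps27. Each window holds 30 bases of the RefSeq promoter table (GRCm38.p6), sense strand, from 10 bases before the annotated start onwards. Capitals mark the longest pyrimidine run that begins within 10 bases of that start, and the first such run in a tie. In Rps27rt and Mrpl36 a run as long as the marked one, of 6 and 4 bases, begins with the C at the annotated start and is left in lower case.
Rps18 (chr17:33955646-33955675, minus strand): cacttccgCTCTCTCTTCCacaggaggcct
Rps27 (chr3:90213629-90213658, minus strand): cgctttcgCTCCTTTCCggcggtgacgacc
Rps27rt (chr9:114982720-114982749, minus strand): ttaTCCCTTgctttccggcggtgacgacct
Rpl39 (chrX:37085203-37085232, minus strand): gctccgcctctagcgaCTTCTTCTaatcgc
Rpl39l (chr16:10170218-10170247, plus strand): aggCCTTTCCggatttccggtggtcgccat
Rpl10l (chr12:66284382-66284411, minus strand): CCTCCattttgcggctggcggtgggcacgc
Mrpl36 (chr13:73330999-73331028, plus strand): tggcgTCCCactccactgcgcagacgcgga
Mrps27 (chr13:99344776-99344805, plus strand): cccgCCTTCCacttggtgcgctccaagatg

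The table matched 68 cytosolic genes (80 windows) and 69 mitochondrial genes (75 windows), against 21591 windows for all genes of the data. A C at the annotated start followed by at least 4 pyrimidines stood in 18.8% of cytosolic, 0% of mitochondrial (0 of 75) and 2.34% of all windows. A run of at least 8 pyrimidines near the start was found in 31.2%, 6.67% and 10.6% of these windows. The start tract was thus more frequent in the cytosolic windows, whereas an ETS core was about as frequent in both sets. CCGGAAG, the core bound by GABPA, was present on either strand within 250 bases before to 50 bases after the start in 33.8% of cytosolic, 34.7% of mitochondrial and 11.5% of all windows. The YY1 motif AAGATGGC was found in 10%, 16% and 3.11%, and the NRF1 motif in 2.5%, 4% and 1.33%. Annotated starts can lie some bases from the start used in these cells, and a match is a description of the letters only.

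Cytosolic members were among the most abundant messages of both cell states. Their mean TPM over the 6 libraries had a median of 2225, and 69 of the 89 were at 1000 TPM or above. Mitochondrial members had a median of 77.78 TPM, and 59 of the 78 were below 100. The middle part of each set was narrow, with the upper quartile 2.297 times the lower one for the cytosolic and 1.686 times for the mitochondrial members. At the top stood Rpl23a, at 6179, 5375 and 6207 TPM in ESCs and 5496, 5591 and 5302 TPM in EpiLCs, followed by Rpl41, which encodes the smallest ribosomal protein, at between 4597 and 5435 TPM. Among the mitochondrial genes Mrpl42 (271.2 to 323.2 TPM) and Mrpl12 (197.4 to 252.5 TPM) were highest, and Mrpl41 (9.24 to 10.98 TPM) and Mrps25 (11.68 to 13.68 TPM) were lowest. Rpl3l, the muscle counterpart of Rpl3, was between 0.13 and 0.67 TPM in all libraries, and was the 1 member that did not pass the filter on low counts.

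Together the cytosolic members took 19.78%, 18.62% and 20.51% of all TPM in the ESC libraries (in the order of their replicate numbers) and 18.92%, 18.77% and 18.65% in the EpiLC libraries. The means were 19.64% ± 0.951 (SD, n = 3) and 18.78% ± 0.138 (SD, n = 3), and the groups overlapped because ESC replicate 2 lay below all EpiLC libraries. Mitochondrial members took 0.6558% ± 0.0158 of TPM in ESCs and 0.6733% ± 0.0104 in EpiLCs (SD, n = 3 each), again with overlap. The sum of genes with Mrps symbols was 0.2286%, 0.2341% and 0.2218% in ESCs and 0.2366%, 0.2342% and 0.243% in EpiLCs, where EpiLC replicate 2 exceeded ESC replicate 2 in the last digit only. Without Mrps36 it was 0.2197%, 0.2265% and 0.2141% in ESCs and 0.2263%, 0.2236% and 0.2324% in EpiLCs, and the groups overlapped. By symbol, the large-to-small ratio of summed TPM was 1.874 ± 0.00894 and 1.83 ± 0.0203 (SD, n = 3) for the mitochondrial and 1.377 ± 0.0141 and 1.357 ± 0.0102 for the cytosolic ribosome in ESCs and EpiLCs. With Mrps18a and Mrps30 counted in the large subunit and Mrps36 left out, the mitochondrial ratio was 2.202, 2.16 and 2.187 in ESCs and 2.125, 2.173 and 2.115 in EpiLCs, with overlap. These are shares of the RNA in bulk samples, in which fewer cells of a type and less RNA per cell cannot be told apart, and the amount of ribosomal protein RNA per cell was not measured.

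**Figure D1:**
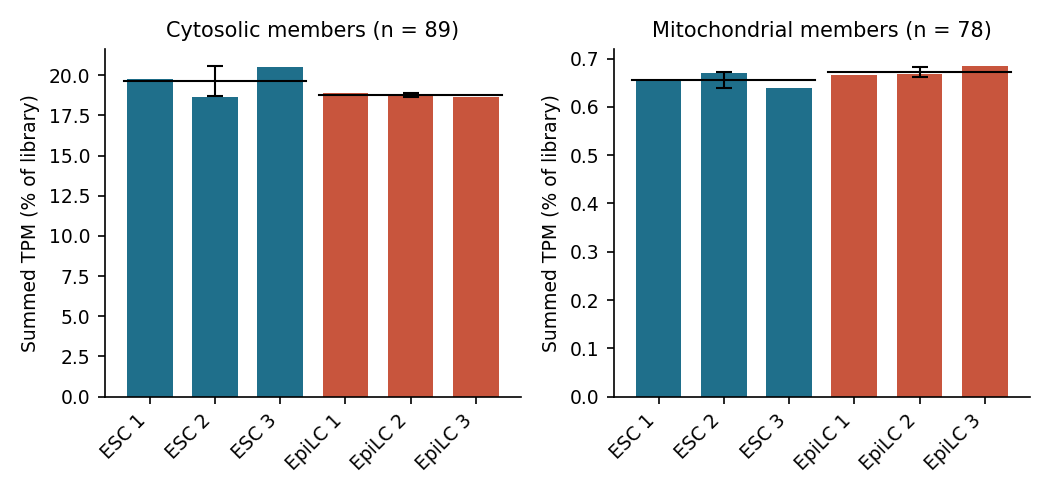
Summed TPM of the cytosolic (left) and mitochondrial (right) ribosomal protein genes in each library, as percent of all TPM; bars are libraries, black lines are group means and whiskers are 1 SD (n = 3). The ESC libraries spread from 18.62% to 20.51% for the cytosolic genes, whereas the EpiLC libraries lie between 18.65% and 18.92%.

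The spread between ESC libraries ran through most cytosolic members together. Of the 88 that were tested, 64 had their highest ESC level in replicate 3 and 69 their lowest in replicate 2, and 59 followed the order of replicate 3, then 1, then 2. ESC replicate 2 also had the highest fibroblast marker sum (1650 TPM against 130.4 in replicate 3), and the part of the feeder signal in the cytosolic level was not tested. Mitochondrial members did not share that order, which 6 of 78 followed. Replicates of the members were otherwise close: the median coefficient of variation of TPM was 5.37% in ESCs and 1.97% in EpiLCs for cytosolic members, 5.66% and 3.9% for mitochondrial members, and 13.8% and 7.65% for all genes tested. Genes outside the set at similar levels were nearer to the members. Their median was 6.72% and 3.72% at a mean of at least 1000 TPM, and 8.86% and 4.72% at 20 to 200 TPM.

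The comparison of EpiLCs with ESCs asked which ribosomal protein genes differed between the states. Small decreases prevailed in the cytosolic set: the median log2 fold change over its 88 tested members was -0.15, against -0.002 over all 14468 genes tested, and 77 of the 88 had a negative value. With the threshold of 0.05 on the adjusted p of edgeR's quasi-likelihood test, 20 cytosolic members were lower in EpiLCs (22.7% of those tested) and 1 was higher. Over all genes, 45.4% passed this threshold, with 22.6% higher and 22.8% lower, so in this fit the share of cytosolic members that were lower was close to the background, and few were higher. The share that were lower was above the background of the same fit by DESeq2 (42% against 25.4%) and without ESC replicate 2 (48.9% against 24.5%), and below it with total counts (13.6% against 20.6%), with upper-quartile factors (7.95% against 21.2%) and without any other single library (3.41% to 10.2% against 14.2% to 23.2%). Of the changes, 85 of 88 cytosolic members (96.6%) lay within 0.3 of no change on the log2 scale, against 42.1% of all genes tested. Among 65 genes outside the set with a mean of at least 1000 TPM, 84.6% lay within 0.3. Their median log2 fold change was -0.03, and 12 were higher and 14 lower. With DESeq2, 12 of these 65 were higher and 18 lower, and with limma on log2(TPM + 1) 18 and 7.

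The count of lower cytosolic members depended strongly on single libraries. It was 43 without ESC replicate 2, the library with the high fibroblast sum, 9 without ESC replicate 1, 8 without ESC replicate 3, and 3, 5 and 7 without EpiLC replicates 1, 2 and 3. DESeq2 called 37 lower and 2 higher. Scaling alone changed the split to 4 higher and 12 lower with total counts and to 2 and 7 with upper-quartile factors. With limma on log2(TPM + 1), which changes the test and the measure as well, it was 5 and 11. The median log2 fold change of the cytosolic members stayed negative in each of these fits, between -0.19 and -0.09, and its distance to the median of all genes was between -0.20 and -0.11.

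**Figure D2:**
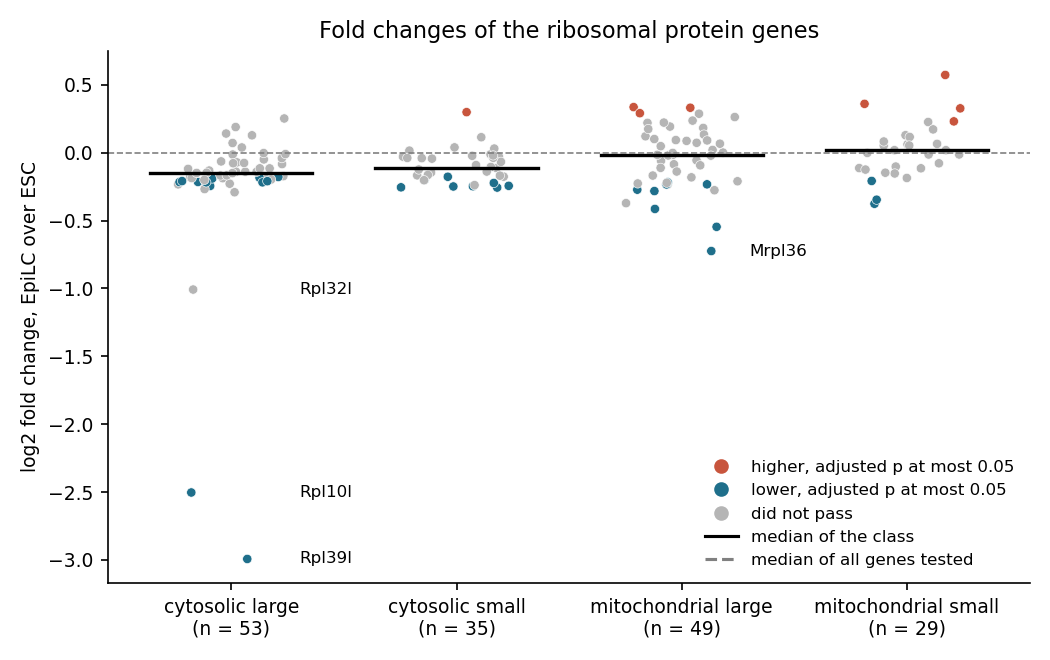
Log2 fold change (EpiLC over ESC, edgeR) of each tested ribosomal protein gene by the subunit its symbol names; points are genes, coloured where the adjusted p was at most 0.05, black lines are class medians and the dashed line is the median of all genes tested. Rpl39l and Rpl10l stand far below the other genes, and most cytosolic points lie just under the dashed line.

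Cytosolic members that passed as lower fell by little, with the exception of a pair of paralogs. Only Rpl39l and Rpl10l passed the test with an absolute log2 fold change above 1, a size that 20.2% of all genes reached together with the threshold. Rpl39l, a paralog of the exit-tunnel protein Rpl39 that is best known from male germ cells, was at 20.39, 12.83 and 10.63 TPM in ESCs and 2.12, 1.86 and 1.67 TPM in EpiLCs. All EpiLC libraries were below all ESC libraries, and the log2 fold change was -2.99 (SE 0.311, adjusted p = 0.000541, edgeR), a 7.96-fold lower level. Rpl10l, a single-exon gene on chromosome 12 and the autosomal copy of the X-linked Rpl10, was at 66.5, 60.86 and 45.05 TPM in ESCs and 10.53, 11.1 and 9.8 TPM in EpiLCs. The groups were again apart, with a log2 fold change of -2.50 (SE 0.165, adjusted p = 0.000124, edgeR), 5.67-fold lower.

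The genes that these paralogs resemble were far more abundant. Rpl39 went from 1692, 1665 and 1768 TPM to 1605, 1491 and 1498 TPM (log2 fold change -0.21, SE 0.0609, adjusted p = 0.0286, edgeR), and Rpl10 was between 2879 and 3061 TPM in all 6 libraries, with overlapping groups. The call of Rpl39 was lost without ESC replicate 1 or 3 or any 1 EpiLC library, with an adjusted p of up to 0.113 (edgeR), and also without a filter (0.0521), with total counts (0.0556) and with upper-quartile factors (0.0619). Rpl39l therefore amounted to 0.859% of Rpl39 in ESCs and 0.123% in EpiLCs, a log2 ratio of -6.92 ± 0.508 and -9.67 ± 0.124 (SD, n = 3). Rpl10l amounted to 1.95% and 0.346% of Rpl10, a log2 ratio of -5.70 ± 0.314 and -8.18 ± 0.082. In both states the 2 paralogs were thus a minor part of the pair. Neither Rpl39l nor Rpl10l shared a stretch of the read length, 76 bases, with another row of the table in the GENCODE vM21 transcripts, although the counts of Rpl39l were not whole in every library.

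**Figure D3:**
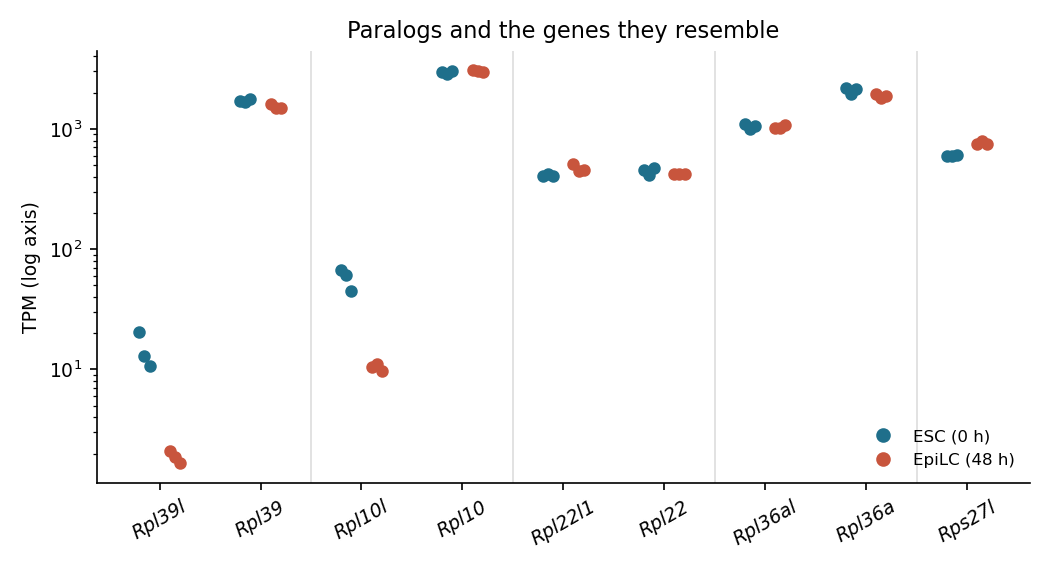
TPM (log axis) of paralogs and of the genes they resemble in each library; points are libraries, blue for ESC and red for EpiLC, and grey lines separate pairs. Rpl39l falls from 10.63 to 20.39 TPM to about 2 TPM and Rpl10l from 45.05 to 66.5 TPM to 9.8 to 11.1 TPM, while Rpl39 and Rpl10 stay above 1000 TPM.

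The 1 cytosolic member that rose was another paralog. Rps27l, a target of p53 that resembles Rps27, was at 598.6, 596.7 and 605.9 TPM in ESCs and 754.7, 791.6 and 748.1 TPM in EpiLCs. The ESC values were within 10 TPM of each other and below all EpiLC values, with a log2 fold change of 0.30 (SE 0.0513, adjusted p = 0.0039, edgeR). Rpl22l1 was at 405.1, 422.1 and 402.2 TPM in ESCs and 508.5, 443.7 and 452.6 TPM in EpiLCs, and did not pass the test (log2 fold change 0.14, SE 0.0748, adjusted p = 0.163, edgeR). Its log2 ratio to Rpl22, the gene it partly replaces when Rpl22 is lost, was -0.169, 0.036 and -0.227 in ESCs and 0.269, 0.081 and 0.093 in EpiLCs, without overlap, so Rpl22l1 went from 92.3% to 111% of Rpl22. Rpl36al was 50.2% and 55.4% of Rpl36a, also without overlap. For Rpl7l1 (5.8% and 5.91% of Rpl7), Rps4l (23.6% and 22.4% of Rps4x) and Rpl3l (0.0148% and 0.0131% of Rpl3) the ratios overlapped between the groups.

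The other 18 lower members were ordinary subunits, whose fitted levels fell by between 11.6% and 16.3%. Each had EpiLC values below all ESC values in TPM, with adjusted p from 0.00736 to 0.0492 (edgeR). As they were picked by this test on the same libraries, the separation is no further support. Members that did not pass, such as Rpl13, Rps29 and Rps6, also had EpiLC values below all ESC values. Rps14, a protein of the platform of the small subunit, was at 2468, 2433 and 2659 TPM in ESCs and 2173, 2201 and 2185 TPM in EpiLCs (log2 fold change -0.26, SE 0.0579, adjusted p = 0.0111). Rps18, whose start is shown above with its pyrimidine tract, was at 3741, 3556 and 4112 TPM in ESCs and 3324, 3360 and 3283 TPM in EpiLCs (log2 fold change -0.25, SE 0.0686, adjusted p = 0.0241). The ESC replicates of Rps18 differed among themselves by more than ESC replicate 2 differed from the EpiLCs. Rps15a (log2 fold change -0.25, SE 0.0571), Rpl12, a protein at the base of the stalk (-0.25, SE 0.0746), and the X-linked Rpl36a (-0.22, SE 0.0682) behaved alike in size. Without EpiLC replicate 1 the adjusted p was 0.0594 for Rps14, 0.0898 for Rps18 and 0.111 for Rpl12, and without EpiLC replicate 2 it was 0.0559 for Rps15a and 0.133 for Rpl36a (edgeR). Of these, Rps14 was lost without that library alone and Rps15a without EpiLC replicate 1 or 2, whereas Rps18 was lost without ESC replicate 1 or any EpiLC library, and Rpl12 and Rpl36a without any library except ESC replicate 2. With all libraries, Rps18 was lost with upper-quartile factors (adjusted p = 0.0579), Rpl12 with total counts, upper-quartile factors and limma on either TPM scale (0.0612 to 0.0748), and Rpl36a under the same and without a filter (0.0594 to 0.0795).

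Messages with a start tract were not marked out among the lower members. Of 15 lower members with a window, 2 had a C and at least 4 pyrimidines at the start, against 13 of 51 members that did not pass. The median log2 fold change was -0.12 over the 15 tested members with such a start and -0.14 over the 52 others. These groups are set side by side as a description, without a test.

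Proteins with defined tasks on the cytosolic ribosome formed a list of 11 genes. Of these, 1 was lower and 0 were higher in edgeR (9.09% called, against 45.4% of all genes), 5 lower and 1 higher had an unadjusted p under 0.05, DESeq2 called 5 lower and 1 higher, and limma on log2(TPM + 1) called 0 lower and 2 higher. The lower gene was Rps27a, which encodes ubiquitin fused to a ribosomal protein, at 2722, 2627 and 2763 TPM in ESCs and 2555, 2453 and 2424 TPM in EpiLCs (log2 fold change -0.18, SE 0.0524, adjusted p = 0.03, edgeR), and it lost its call without any library except ESC replicate 2 (adjusted p up to 0.116) and, with all libraries, under total counts, upper-quartile factors, no filter and limma on either TPM scale (0.0598 to 0.0814). The P protein genes Rplp0, Rplp1 and Rplp2, whose products form the stalk that recruits translation factors, did not pass the test. Rplp0 was at 2325, 2365 and 2189 TPM in ESCs and 2635, 2658 and 2496 TPM in EpiLCs (log2 fold change 0.13, SE 0.0496, adjusted p = 0.0728), Rplp2 had a log2 fold change of -0.15 (SE 0.0594, adjusted p = 0.0779), and Rplp1 overlapped between groups at 3538 to 3955 TPM. Rps19, the gene most often mutated in Diamond-Blackfan anaemia, had a log2 fold change of 0.11 (SE 0.0522, adjusted p = 0.115). Rpl5 (-0.20, SE 0.0803, adjusted p = 0.0793) and Rpl11 (2279 to 2392 TPM in all libraries), which bind MDM2 when ribosome assembly is disturbed, did not pass. Rps6, the substrate of S6 kinase (-0.20, SE 0.0718, adjusted p = 0.0549), and Rpl38 (-0.17, SE 0.0586, adjusted p = 0.0537) missed the threshold narrowly.

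Some cytosolic rows could not be read alone, because similar copies share their reads. Of the expected counts of cytosolic members 27% were not whole within a tolerance of 0.005, which shows reads divided between rows, against 1.28% for mitochondrial members and 5.78% for all genes with a count. Rps27 was the clearest case. Its row held 855.4, 197.6 and 475 TPM in ESCs and 714, 512.9 and 282.9 TPM in EpiLCs, a 4.33-fold range, while Rps27rt, a single-exon copy on chromosome 9 of which 90.3% of the 76-base stretches also occur in Rps27, held 2334, 3017 and 2889 TPM and 2679, 2701 and 2985 TPM. The sum of both rows was between 3189 and 3393 TPM in all libraries, with 3256 ± 94.5 TPM as the ESC mean and 3292 ± 91.7 TPM as the EpiLC mean (SD, n = 3 each). The Rps27 row thus varied several-fold while the pair varied by a factor of 1.06. In the fit of single rows the log2 fold change was -0.07 (SE 0.516) for Rps27 and -0.03 (SE 0.109) for Rps27rt, and both changed sign with limma on log2(TPM + 1) or without single libraries, and Rps27rt also with total counts; with the rows summed it was -0.04 (SE 0.0562, adjusted p = 0.632, edgeR).

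Rpl26 was singled out after its values were seen, as a row that is low beside another row with which it shares sequence. It held between 32.34 and 120.8 TPM, at most 2.7% of the sum with Gm15772, with which it shares 26.4% of its 76-base stretches, and the part of shared reads in its low level was not tested. Gm15772 itself held 4240, 3550 and 4354 TPM in ESCs and 3520, 3492 and 3452 TPM in EpiLCs. Summed, the rows gave 4122 ± 475 TPM and 3552 ± 34.8 TPM (SD, n = 3 each) and a log2 fold change of -0.27 (SE 0.0904, adjusted p = 0.0477, edgeR), whereas the Rpl26 row alone had an SE of 0.481. When all rows that share at least 5% of a member's 76-base stretches were summed with it, 40 members passed instead of 39, and all 39 were among them. At 0.68 to 3.59 TPM, Rpl32l was the lowest tested cytosolic member, with a log2 fold change of -1.01 (SE 0.474, adjusted p = 0.121) that did not pass.

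**Figure D4:**
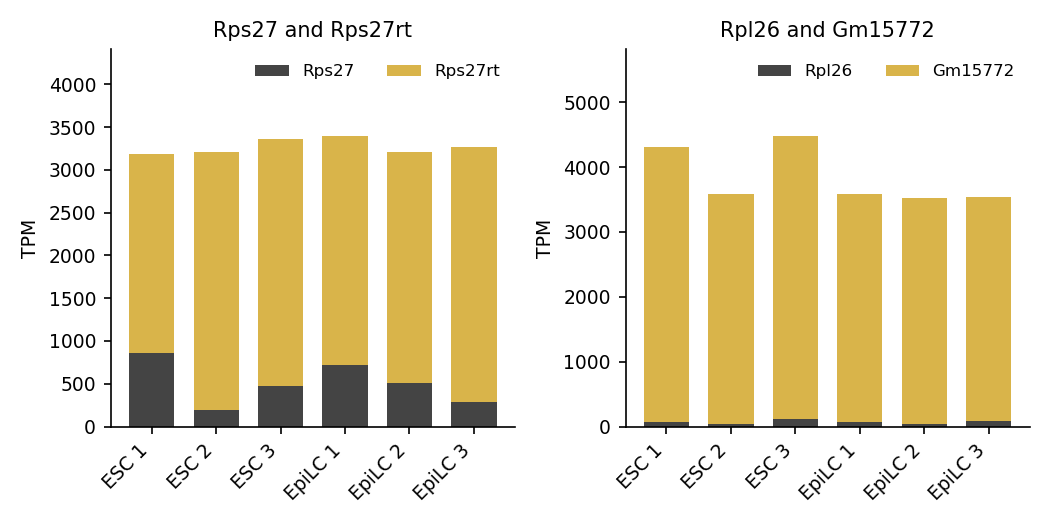
TPM of the rows of Rps27 and Rps27rt (left) and of Rpl26 and Gm15772 (right), stacked in each library. The dark Rps27 part ranges from 197.6 to 855.4 TPM while the full bar stays between 3189 and 3393 TPM, and nearly all of the right-hand bars is Gm15772.

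Mitochondrial members moved in both directions. Of 78 tested, 7 were higher and 11 lower in EpiLCs (23.1% together, against 45.4% of all genes), none beyond an absolute log2 fold change of 1, and the median log2 fold change was -0.008. The direction of the split depended on scaling, with 10 higher and 8 lower for total counts and 10 and 9 for upper-quartile factors. Over all genes of the same fits, 25.5% were higher and 20.6% lower for total counts, and 23.9% and 21.2% for upper-quartile factors. With limma on log2(TPM + 1), which changes the test and the measure as well, 17 were higher and 10 lower (21.8% and 12.8%, against 26.6% and 19.7% of all genes). Single libraries also moved the split, to 3 higher and 3 lower without EpiLC replicate 1, 2 and 3 without EpiLC replicate 2, 3 and 7 without EpiLC replicate 3, and 11 and 13 without ESC replicate 2. The shares of all genes moved too. They were 14.5% higher and 14.2% lower without EpiLC replicate 1, 15.8% and 16.3% without EpiLC replicate 2, and 17.8% and 17.2% without EpiLC replicate 3. Without ESC replicate 2 they were 24.3% and 24.5%. In TPM the EpiLC values of each of the 18 genes called with all libraries lay entirely above or entirely below the ESC values. As these genes were picked by a test on the same libraries, that separation is no further support. Members that did not pass, such as Mrpl1 and Mrpl13, were apart in the same way.

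The largest decrease was that of Mrpl36, a small protein of the large subunit, at 57.08, 72.44 and 63.91 TPM in ESCs and 37.71, 38.31 and 45.16 TPM in EpiLCs (log2 fold change -0.72, SE 0.131, adjusted p = 0.0048, edgeR). Mrpl24 was at 179.5, 154.4 and 190.3 TPM in ESCs and 116.8, 129.6 and 126.1 TPM in EpiLCs (log2 fold change -0.55, SE 0.0967, adjusted p = 0.00438). Mrpl15 was at 107.9, 106.6 and 116.5 TPM in ESCs and 80.56, 83.47 and 90.1 TPM in EpiLCs (log2 fold change -0.41, SE 0.0751, adjusted p = 0.00479). These 3 large-subunit genes passed in each of the 16 alternatives tried. Mrpl35 had a smaller decrease (-0.28, SE 0.0669, adjusted p = 0.0134), as did Mrpl45, which anchors the ribosome to the inner membrane (-0.23, SE 0.0598, adjusted p = 0.0178). Mrpl35 was lost without EpiLC replicate 1 or 2 (adjusted p up to 0.077) and Mrpl45 without any 1 EpiLC library (up to 0.0749).

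In the small subunit, Mrps16, mutated in a combined respiratory chain deficiency, was at 112.9, 122.7 and 122.6 TPM in ESCs and 86.55, 97.86 and 101.7 TPM in EpiLCs (log2 fold change -0.38, SE 0.0979, adjusted p = 0.0189, edgeR). Mrps33 (log2 fold change -0.35, SE 0.0818, adjusted p = 0.0133) and Mrps30, whose product sits in the large subunit despite its symbol (-0.21, SE 0.059, adjusted p = 0.0258), were lower too. Without EpiLC replicate 1 or 2 the calls of Mrps16 and Mrps33 were lost (adjusted p up to 0.0887 and 0.0604), and that of Mrps30 was lost without any library except ESC replicate 2 (up to 0.106), with no filter and with total counts (0.0573 in each).

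The largest increase was that of Mrps34, a small-subunit gene needed for the stability of that subunit, at 59.87, 75.79 and 50.57 TPM in ESCs and 96.64, 90.67 and 98.66 TPM in EpiLCs (log2 fold change 0.57, SE 0.146, adjusted p = 0.0176, edgeR). Its ESC replicates were wide apart, and yet all were below the EpiLC libraries. Mrps27, an RNA-binding protein of the pentatricopeptide repeat family, was tighter, at 76.09, 69.9 and 73.9 TPM in ESCs and 98.25, 93.75 and 100.4 TPM in EpiLCs (log2 fold change 0.36, SE 0.0685, adjusted p = 0.00581), and its call held in all 16 alternatives. Mrps36, whose product has since been assigned to the oxoglutarate dehydrogenase complex, was at 89.05, 75.83 and 77.07 TPM in ESCs and 102.5, 106.4 and 105.6 TPM in EpiLCs (log2 fold change 0.33, SE 0.0891, adjusted p = 0.0227). Mrps10 rose by 0.23 on the log2 scale (SE 0.0757, adjusted p = 0.0436). Mrps34 was lost without ESC replicate 1 or EpiLC replicates 1 or 3 (adjusted p up to 0.0622), Mrps36 without any 1 EpiLC library (up to 0.0724), and Mrps10 without any library except ESC replicate 1 (up to 0.129) and without a filter (0.0535).

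Of the large subunit, Mrpl34 rose from 137.7, 132.9 and 119.2 TPM to 165.4, 175.9 and 168.1 TPM (log2 fold change 0.34, SE 0.0774, adjusted p = 0.0122, edgeR). Mrpl53 (log2 fold change 0.33, SE 0.0877, adjusted p = 0.0203) and Mrpl38 (0.29, SE 0.0671, adjusted p = 0.0123) rose by similar amounts. Without EpiLC replicate 2 the adjusted p was 0.0511 for Mrpl34 and 0.0531 for Mrpl38, and Mrpl53 was lost without ESC replicate 1 or any EpiLC library (up to 0.0768). Mrpl12, which also binds the mitochondrial RNA polymerase, was at 224.1, 238.9 and 197.4 TPM in ESCs and 243.2, 247.6 and 252.5 TPM in EpiLCs and did not pass (0.12, SE 0.0773, adjusted p = 0.237). Of the 12 mitochondrial genes listed for a particular role or history, among them the 3 Mrps18 copies, Mrps12 and Mrps22, 1 was higher (Mrps36) and 2 were lower (Mrps16 and Mrpl45), 25% against 45.4% of all genes.

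**Figure D5:**
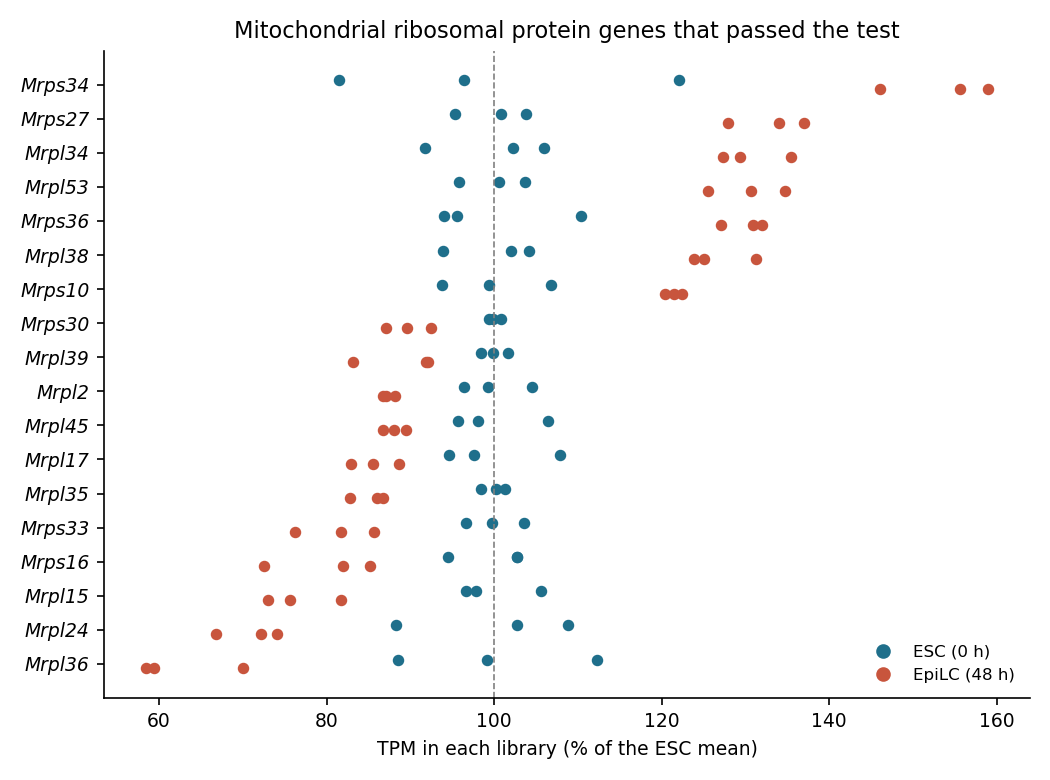
TPM of the 18 mitochondrial ribosomal protein genes that passed the test, in each library as percent of the mean of the ESC libraries; points are libraries, blue for ESC and red for EpiLC, and the dashed line is the ESC mean. For every gene the red points lie wholly on one side of the blue points, with 7 genes to the right and 11 to the left. The genes shown were picked by the test on these same libraries.

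Subunits whose symbols fall outside the rule were read beside the members. Of the cytosolic ones, Rack1, a scaffold on the small subunit, was at 2545, 2403 and 2639 TPM in ESCs and 2331, 2343 and 2254 TPM in EpiLCs (log2 fold change -0.18, SE 0.0558, adjusted p = 0.0338, edgeR), a call that was lost without any library except ESC replicate 2 (adjusted p up to 0.113) and under total counts, upper-quartile factors, no filter and limma on either TPM scale (0.0615 to 0.0952). Fau, which encodes a ubiquitin-like fusion of a small-subunit protein, had a log2 fold change of -0.16 (SE 0.0586, adjusted p = 0.0614) and did not pass. Of the 3 cytosolic ones, edgeR called 1 lower, DESeq2 2 lower and limma on log2(TPM + 1) 0. Over all genes these tests called 45.4%, 48.8% and 46.2%. Of 5 mitochondrial ones, edgeR called 0, 1 had an unadjusted p under 0.05, and DESeq2 and limma on log2(TPM + 1) called 1 each. The gene with the low unadjusted p was Chchd1, at 154.3, 133.9 and 137.9 TPM in ESCs and 172.7, 170.2 and 174.5 TPM in EpiLCs (0.23, SE 0.0802, adjusted p = 0.0535).

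Genes that make or regulate ribosomes were read against the same background of 45.4% of all genes called, 22.6% higher and 22.8% lower. Of 54 tested ribosome biogenesis genes, 6 were higher and 7 lower (24.1% called, median log2 fold change -0.04), with 6 higher and 12 lower by DESeq2 and 12 higher and 5 lower by limma on log2(TPM + 1). Heatr1, a factor of pre-rRNA transcription and processing, fell by 0.49 on the log2 scale (SE 0.0743, adjusted p = 0.00247, edgeR), as did Tcof1, the treacle gene (SE 0.0676, adjusted p = 0.00171). Ebna1bp2 (0.37, SE 0.0602) and Utp14a (0.36, SE 0.0731) were the largest increases. Of 14 genes of RNA polymerase I and its factors, 1 was higher (Polr1e, 0.37, SE 0.0852) and 5 lower (42.9% called, close to the 45.4% of all genes), led by Taf1d (-0.51, SE 0.065) and Znrd1 (-0.37, SE 0.117). The calls of Polr1e (adjusted p = 0.0528) and Znrd1 (0.127) were lost without EpiLC replicate 1, and that of Znrd1 also without ESC replicates 1 or 3 or EpiLC replicate 2, without a filter (0.0507) and with upper-quartile factors (0.0564).

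Of 13 genes listed for messages with the same start tract, mostly translation factors but also Tpt1, Naca and Hnrnpa1, 4 were lower in edgeR and 0 higher (30.8% lower, against 22.8% of all genes, and 30.8% called in all, against 45.4%), with 1 higher at an unadjusted p under 0.05 (Hnrnpa1, an RNA-binding protein of splicing) and 1 higher by DESeq2 and by limma. Eif4b was at 673, 596.3 and 762.8 TPM in ESCs and 502.8, 490.3 and 525.2 TPM in EpiLCs (log2 fold change -0.47, SE 0.0985, adjusted p = 0.0083), and Eef1g fell by 0.28 on the log2 scale (SE 0.0712, adjusted p = 0.0173), a call lost without EpiLC replicate 1 or 2 (adjusted p up to 0.071). Among 8 hosts of small nucleolar RNAs 37.5% were called, against 45.4% of all genes: Snhg4 (0.66, SE 0.141) and Snhg3 (0.59, SE 0.0961) were higher and Snhg1 (-0.46, SE 0.0825) was lower. DESeq2 called 2 of these hosts higher and 3 lower, and 2 and 3 had an unadjusted p under 0.05 in edgeR.

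Of 27 genes of mitochondrial translation and ribosome assembly, 3 were higher and 5 lower (29.6% called, against 45.4% of all genes), with 5 higher and 3 lower by limma on log2(TPM + 1). Noa1, a GTPase of mitochondrial ribosome assembly, was at 28.23, 26.85 and 23.38 TPM in ESCs and 43.17, 46.02 and 45.48 TPM in EpiLCs (log2 fold change 0.73, SE 0.0878, adjusted p = 0.000949, edgeR). Mterf4 was the next largest increase (0.34, SE 0.108), and Mtrf1 (-0.66, SE 0.152) and Tfb1m, which methylates the small-subunit rRNA (-0.43, SE 0.142), were the largest decreases. Mtrf1 was lost without EpiLC replicate 2 (adjusted p = 0.0516), Mterf4 without any library except ESC replicate 3 (up to 0.114) and Tfb1m without any except ESC replicate 2 (up to 0.146) and also with no filter, total counts or upper-quartile factors (0.0594 to 0.0647).

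In the pathway that controls TOP messages, 1 of 14 genes was higher (Rps6kb1, which encodes an S6 kinase, 0.24, SE 0.0553) and 3 were lower (28.6% called, against 45.4% of all genes), with 1 higher and 1 lower by limma on log2(TPM + 1). Mtor itself was at 29.37, 26.51 and 32.75 TPM in ESCs and 23.2, 25.08 and 23.03 TPM in EpiLCs (log2 fold change -0.37, SE 0.0908, adjusted p = 0.0158, edgeR), and Rptor fell by 0.23 on the log2 scale (SE 0.0653, adjusted p = 0.0279). Mtor was lost without EpiLC replicates 1 or 3 (adjusted p up to 0.0676), Rps6kb1 without EpiLC replicates 1 or 2 (up to 0.0598) and Rptor without any library except ESC replicate 2 (up to 0.0985), and Rptor also under total counts, upper-quartile factors, no filter and limma on either TPM scale (0.0525 to 0.113). Of 5 promoter-binding factors listed beside the motif search (Gabpa, Gabpb1, Nrf1, Yy1 and Sp1, the last of which had no motif searched), Gabpa was lower (-0.34, SE 0.0625) and its partner Gabpb1 higher (0.30, SE 0.0943), the latter not without ESC replicate 1 or any EpiLC library (adjusted p up to 0.0967). These 2 were 40% of the factors, against 45.4% of all genes.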

How the data were processed

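Single-end reads of 76 bases were trimmed by the authors with cutadapt 1.16, mapped with STAR 2.5.2a and counted with RSEM 1.3.0 per RefSeq gene of mm10, with strand. The authors deposited RSEM expected counts, in which reads that fit several genes are divided between them, and TPM, which are corrected for transcript length. Expected counts were rounded, filtered with filterByExpr (14468 of 24736 genes), scaled by TMM and compared by the quasi-likelihood test of edgeR 4.0.16 in R 4.3.3, with Benjamini-Hochberg adjustment over all genes and a threshold of 0.05. Alternatives used DESeq2 1.42.0, limma 3.58.1 on log2(TPM + 1) and log2(TPM + 0.1), other scalings and filters, a replicate block and each library left out. Summing rows that share sequence, and placing Mrps18a, Mrps30 and Mrps36 by protein, were alternatives chosen once the data had been seen. The scripts were tested on simulated counts.

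The members and lists were chosen with earlier results of these data known. Genes were named by a rule: the 4 largest rises and falls past the threshold in each subunit class (mean of at least 1 CPM), any change above 1 on the log2 scale, the 2 highest and lowest levels, paralogs, stalk and other special proteins, and the 2 largest rises and falls in each pathway list. Stretches of 76 bases from the members' coding transcripts were sought in the GENCODE vM21 transcripts, coding or not, of all genes in the data. Some genes that the rule names are not reported here.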

Additional observations from a re-analysis of the deposited data

How the results depend on the processing

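Of the 25 named members that passed the test, all 25 kept their direction in the 16 alternatives planned, and 7 kept their call in each of them (Rpl39l, Rpl10l, Rps27l, Mrpl36, Mrpl24, Mrpl15 and Mrps27). The log2 ratio of summed TPM and the paralog ratios moved by less than the spread between replicates, except that the change of the Rpl39l to Rpl39 ratio was -2.23 with 1 added to each TPM, which follows from the low TPM of Rpl39l.

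Cytosolic members counted higher and lower were 2 and 37 with DESeq2, 2 and 7 with upper-quartile factors, 4 and 12 with total counts, 5 and 12 by limma with 0.1 added to TPM, and 5 and 11 with 1 added to TPM. Lower members numbered 13 without a filter and 13 among those with whole counts, and 0 were higher without paralogs and Rps19bp1 (1 at an unadjusted p under 0.05 in edgeR, and 1 by DESeq2). Leaving out 1 library gave 1 to 2 higher and 3 to 43 lower. The cytosolic median was -0.094 on both TPM scales.

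Mitochondrial members counted higher were 17 on both TPM scales (21.8%, against 26.4% and 26.6% of all genes), and leaving out 1 library gave 2 to 11 higher and 3 to 13 lower. These were 2.56% to 14.1% higher and 3.85% to 16.7% lower, against 14.5% to 24.3% and 14.2% to 24.5% of all genes. Their median was 0.047 and 0.046 on log2(TPM + 0.1) and log2(TPM + 1), 0.038 with total counts and 0.018 with upper-quartile factors, and between -0.017 and 0.017 with 1 library left out. The median of all genes moved alike, to 0.057, 0.049 and 0.044 on log2(TPM + 0.1), log2(TPM + 1) and total counts.

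Over all genes, leaving out 1 library gave 2144 to 3572 higher and 2100 to 3609 lower. The pathway lists (54, 14, 13, 8, 27, 14 and 5 genes) together had 14 higher and 26 lower in the main fit. They had 26 higher on both TPM scales (median -0.001 in each) and with total counts, 17 lower without a filter, and 7 to 17 higher and 11 to 32 lower with 1 library left out. Of all genes, 22.6% were higher and 22.8% lower in the main fit. The share of all genes that were higher was 26.4% on log2(TPM + 0.1), 26.6% on log2(TPM + 1) and 25.5% with total counts, and 17.4% were lower without a filter. The row of Rps27 changed sign to 0.122 on both TPM scales, to 0.041 with the replicate block, and lay between -0.444 and 0.487 with 1 library left out. The row of Rps27rt changed sign to 0.029 on both TPM scales and 0.017 with total counts, and lay between -0.151 and 0.038 with 1 library left out. Apart from fits with fewer samples or genes, the cause of these changes was not tested.

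The labels do not say whether the replicate numbers pair the samples, and the main fit used no pairing. Deviations of libraries with the same number correlated at 0.00668, 0.186 and 0.17 across genes. The libraries of replicates 2 and 3 correlated best with their own number. ESC replicate 1 correlated best with EpiLC replicate 3 (0.0836), and EpiLC replicate 1 with ESC replicate 2 (0.0802). These values cannot settle whether the samples were paired. With the number as a replicate block, 1 cytosolic member was higher and 18 lower (1.14% and 20.5%), and 5 mitochondrial members were higher and 7 lower (6.41% and 8.97%). Of all genes, 20.6% were higher and 21.5% lower with the block. Among named genes, the block ended the calls of Rps27a (adjusted p = 0.0512, edgeR), Mrpl53 (0.0516), Mrps30 (0.0721), Mrps10 (0.0871), Rack1 (0.0579), Rptor (0.0637), Mterf4 (0.069) and Gabpb1 (0.0522). With 3 libraries per group, changes of about 0.2 on the log2 scale lay at the limit of what passed.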
